A study of Oryza sativa Japonica Group with 64 samples.

Results

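Anthers of the rice mutant csa were compared between late afternoon (16:00) and late night (04:00). The 8 libraries, of 64 in the whole series, were chosen by their labels alone: 4 of csa anthers at 16:00 (2 in short days, SD, and 2 in long days, LD) and 4 of csa anthers at 04:00 (2 in SD and 2 in LD). All plants were Oryza sativa ssp. japonica cultivar 9522 grown in a paddy field, and all anthers were at stage 12. LD was the natural day of about 14.5 h, and SD plots were covered with lightproof film between 18:00 and 6:00, which left 12 h of light. The film was therefore off at 16:00 and on over the SD plots at 04:00, so that the film and the day length cannot be told apart. The 8 wild-type (WT) anther libraries of the same times and day lengths, and the csa flag leaves of the same tillers, served for comparison. The labels give neither the csa allele nor how many plants each library holds, and they call the 2 libraries of a group biological replicates.

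CSA (Carbon Starved Anther) is a MYB transcription factor that promotes the supply of sugar to the anther. Mutant plants make fertile pollen under LD but not under SD. Most plant tissues carry a circadian clock, a loop in which the morning gene LHY represses evening genes such as GIGANTEA and PRR1 while the PRR proteins repress LHY in turn. The clock and light together set a daily rhythm on photosynthesis, sugar transport and starch turnover. Anthers depend on sugar brought from the leaves. In the course of anther development it is used for the pollen wall and for starch.

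The csa anther libraries held 18.05 M to 25.96 M counts, so that 10 counts were worth 0.385 to 0.554 CPM, the count of a gene scaled to a common library size. The 2 SD pairs of replicates were close, with 13 genes (16:00) and 12 genes (04:00) of at least 5 CPM that lay over 4-fold apart. The 2 LD pairs were less alike, with 207 such genes at 16:00 and 174 at 04:00. In LD, replicate 2 at 16:00 had 2.17 CPM of summed late pollen genes against 29.7 CPM in replicate 1, and replicate 2 at 04:00 had 1677 CPM of summed pollen wall genes against 4193 CPM in replicate 1. The summed pollen wall genes (13 genes) lay between 1677 and 4412 CPM in csa anthers and between 0.544 and 4.95 CPM in csa flag leaves, and the summed photosynthesis genes (17 genes) between 2492 and 6228 CPM in csa anthers and between 56901 and 123854 CPM in the leaves. The leaf table was scaled by itself.

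CSA itself (LOC_Os01g16810) was transcribed in the mutant and did not pass between the times. It had 87.5 and 123 CPM in SD and 184 and 244 CPM in LD at 16:00, against 135 and 133 CPM in SD and 175 and 106 CPM in LD at 04:00, with overlap between the times (log2 fold change 0.13 ± 0.22 (SE), adjusted p = 0.69). In WT anthers CSA lay between 37.9 and 123 CPM. Its paralog CSA2 had 3.38 ± 1.47 CPM at 16:00 and 2.90 ± 1.19 CPM at 04:00 (standard deviation, n = 4 each, over both day lengths). The difference did not pass the test (log2 fold change 0.27 ± 0.24, adjusted p = 0.41). For CSA2 it passed without csa SD 16:00 replicate 1 (0.53, adjusted p = 0.024) and was −0.16 without csa SD 16:00 replicate 2. For CSA it was −0.03 without csa LD 04:00 replicate 2.

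Of 25203 genes tested with edgeR's quasi-likelihood test (Benjamini-Hochberg adjustment over all genes, threshold 0.05), 8119 differed between 16:00 and 04:00 in csa anthers, which is 32.2% of all. Of these 4407 rose (17.5%) and 3712 fell (14.7%) at 16:00 relative to 04:00. Scaling by RLE in place of TMM turned this balance to 3943 rises and 4094 falls, and leaving out the filter on low counts turned it to 3750 rises and 4930 falls. Most differences were small, and 589 rises and 1129 falls reached 2-fold (6.82% of all genes together). Among the 2-fold falls 603 belonged to genes with means under 5 CPM at both times, as did 281 of the 2-fold rises. In 6036 genes (23.9%) the 4 libraries of one time all lay above the 4 of the other. Among 219 genes in 20 lists, chosen for the clock, sugar and starch, the anther, hormones, photosynthesis and stress, 208 were tested, of which 46 rose and 53 fell. Where list counts are also given below with libraries left out, these were LD second replicates. No list count was taken without LD replicate 1 or without an SD library. In a whole anther, fewer cells of a type and less RNA per cell cannot be told apart.

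**Figure D1:**
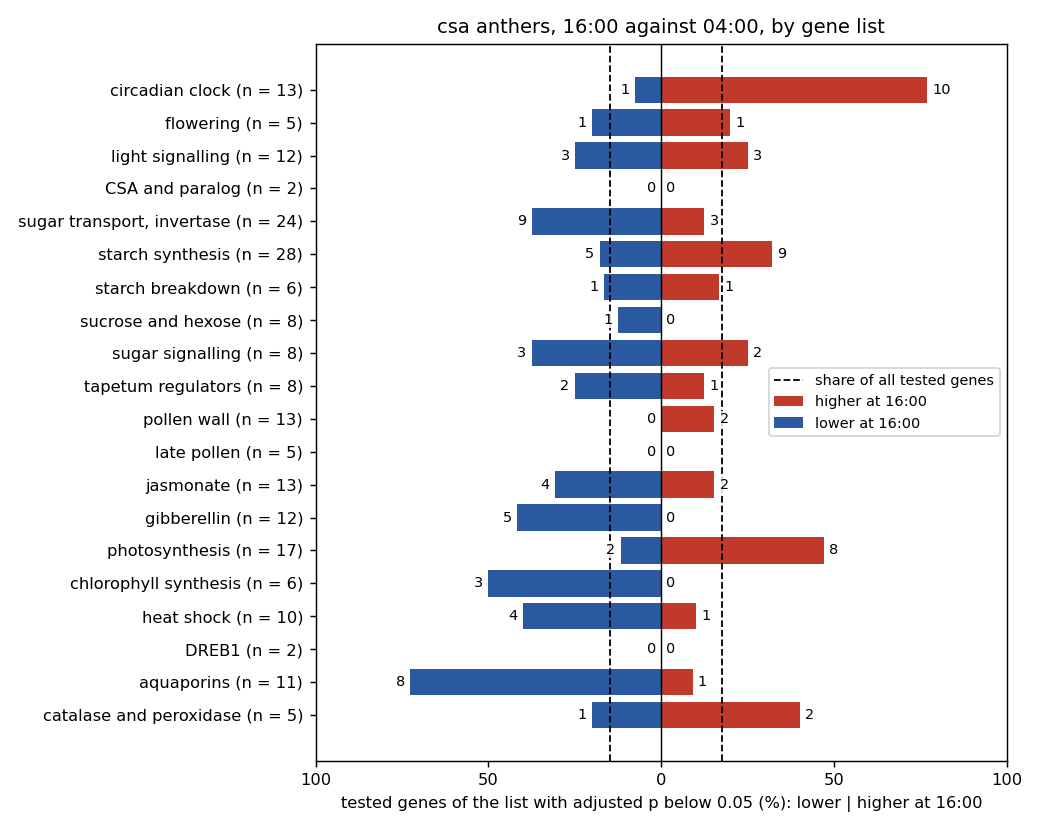
Share of the tested genes of each list that rose (right, red) or fell (left, blue) at 16:00 relative to 04:00 in csa anthers, with the number of genes at each bar and the number tested beside the list name. Dashed lines give the share of all tested genes, 17.5% higher and 14.7% lower. The clock list stands out on the right with 10 of 13 and the aquaporins on the left with 8 of 11.

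The circadian clock had the largest median difference of the 20 lists. Of its 13 genes 10 rose and 1 fell, with a median log2 fold change of 2.16 against 0.02 over all tested genes. OsGI (LOC_Os01g08700, GIGANTEA) had 1362 and 1632 CPM in SD and 1026 and 1064 CPM in LD at 16:00, against 29.5 and 33.7 CPM in SD and 22.6 and 18.9 CPM in LD at 04:00. It was 48.9-fold higher at 16:00 (log2 fold change 5.61 ± 0.12 (SE), adjusted p = 8.0e-11). OsFKF1 (LOC_Os11g34460), a light-sensing F-box protein, had 116 and 113 CPM in SD and 117 and 119.9 CPM in LD at 16:00, against 2.61 and 2.92 CPM in SD and 1.82 and 0.881 CPM in LD at 04:00 (log2 fold change 5.91 ± 0.19 (SE), adjusted p = 3.3e-09). OsLUX (LOC_Os01g74020), a part of the evening complex, had 12.8 and 13.3 CPM in SD and 23.1 and 22.1 CPM in LD at 16:00, against 0.869 and 0.615 CPM in SD and 1.08 and 0.672 CPM in LD at 04:00 (log2 fold change 4.39 ± 0.17 (SE), adjusted p = 1.0e-08). In each of these 3 evening genes every library at 16:00 was above every library at 04:00.

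The pseudo-response regulators (PRR), which act one after another through the day, moved the same way. OsPRR73 (LOC_Os03g17570) had 493 and 456 CPM in SD and 294 and 285 CPM in LD at 16:00, against 16.5 and 17.6 CPM in SD and 14.1 and 12.9 CPM in LD at 04:00 (log2 fold change 4.61 ± 0.09 (SE), adjusted p = 5.7e-11). OsPRR95 (LOC_Os09g36220) had 246 and 244 CPM in SD and 99.6 and 115 CPM in LD at 16:00, against 22.7 and 25.0 CPM in SD and 17.8 and 19.9 CPM in LD at 04:00 (log2 fold change 2.93 ± 0.09 (SE), adjusted p = 2.2e-09). OsPRR37 (LOC_Os07g49460), a repressor of flowering in long days, had 151 and 149 CPM in SD and 107 and 109 CPM in LD at 16:00, against 19.3 and 19.7 CPM in SD and 15.1 and 14.6 CPM in LD at 04:00 (log2 fold change 2.91 ± 0.10 (SE), adjusted p = 7.8e-09). The times did not overlap in any of the 3. OsPRR1 (LOC_Os02g40510), the counterpart of TOC1 of Arabidopsis, averaged 79.4 ± 9.90 CPM at 16:00 and 18.0 ± 4.42 CPM at 04:00 (standard deviation, n = 4 each), with a log2 fold change of 2.16 ± 0.07. OsPRR59 (LOC_Os11g05930) rose little, at 0.41 ± 0.08, and its times overlapped.

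OsLHY (LOC_Os08g06110), the morning gene, was the member that fell. It had 104 and 108 CPM in SD and 10.5 and 11.2 CPM in LD at 16:00, against 515 and 564 CPM in SD and 549 and 739 CPM in LD at 04:00 (log2 fold change −4.12 ± 0.16 (SE), adjusted p = 1.2e-08). Both SD libraries at 16:00 stood far above both LD libraries of that hour, and the 4 libraries at 04:00 were all higher still. The remaining 4 members differed little. OsELF3-1 (LOC_Os06g05060) rose by 0.39 ± 0.10 and OsZTL2 (LOC_Os02g05700) by 0.32 ± 0.10 on the log2 scale. The first call ended without csa LD 04:00 replicate 1 (adjusted p = 0.061), and the second was lost in 5 of the 8 fits that left out 1 library (adjusted p up to 0.14). OsELF3-2 (LOC_Os01g38530) at 0.18 ± 0.11 and OsZTL1 (LOC_Os06g47890) at −0.18 ± 0.07 did not pass, although OsZTL1 did with RLE scaling (adjusted p = 0.044).

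**Figure D2:**
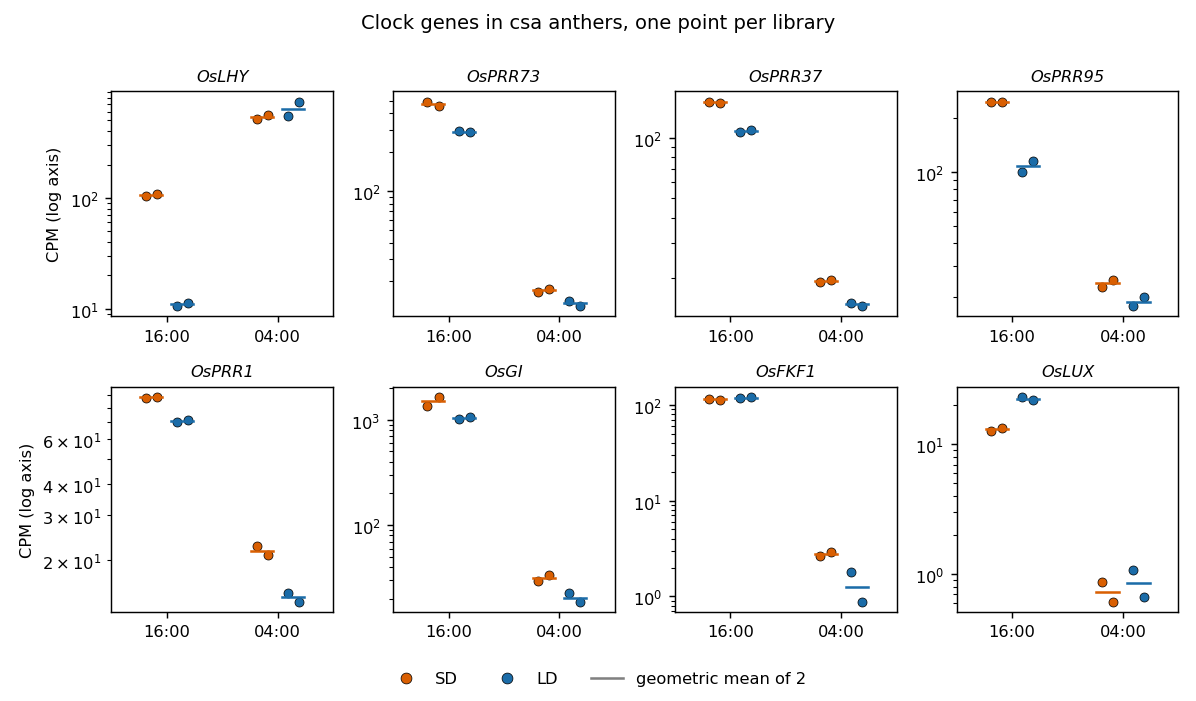
CPM on a log axis of 8 clock genes in the 8 csa anther libraries at 16:00 (left) and 04:00 (right), SD in orange and LD in blue, with the geometric mean of 2 libraries as a bar. OsLHY is low at 16:00, and lower in LD than in SD, while the other 7 genes are high at 16:00 in both day lengths.

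Flowering and light signalling genes moved less. Of 5 flowering genes tested, 1 rose and 1 fell. OsCOL4 (LOC_Os02g39710), a CONSTANS-like repressor of flowering, had 30.5 and 26.3 CPM in SD and 25.2 and 19.0 CPM in LD at 16:00, against 61.5 and 62.2 CPM in SD and 65.1 and 69.8 CPM in LD at 04:00 (log2 fold change −1.37 ± 0.11 (SE), adjusted p = 5.0e-06), with no overlap. OsMADS51 (LOC_Os01g69850), a promoter of flowering in short days, averaged 107 ± 26.9 CPM at 16:00 and 70.5 ± 3.61 CPM at 04:00 (standard deviation, n = 4 each). Its log2 fold change was 0.57 ± 0.09 (SE, adjusted p = 0.001). The flowering regulators Ehd1 and Ghd7 were left out by the filter, with at most 1 count over the 4 libraries of a time.

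Of 12 light signalling genes 3 rose and 3 fell, with a median of −0.20, where 17.5% of all tested genes rose and 14.7% fell. Without both LD second replicates 1 of the 3 falls was left. The photoreceptor genes PHYC (LOC_Os03g54084, phytochrome C; 0.64 ± 0.09) and CRY2 (LOC_Os02g41550, cryptochrome; 0.50 ± 0.07) rose, and CRY1a (LOC_Os02g36380; −0.73 ± 0.14) fell. Among the phytochrome-interacting factors OsPIL16 (LOC_Os05g04740; −0.79 ± 0.18) and OsPIL11 (LOC_Os12g41650; −1.33 ± 0.30) fell. OsPIL13 (LOC_Os03g56950) rose by 0.65 ± 0.20, a call lost in 5 of the 8 fits that left out 1 library (adjusted p up to 0.13).

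Most genes of the light-harvesting antenna rose at 16:00, while Rubisco activase and 3 genes of chlorophyll synthesis fell. Of 12 genes for light-harvesting chlorophyll-binding proteins 8 rose and the other 4 did not pass, with a median of 1.12. Also 8 rose in the fits without csa LD 16:00 replicate 2, without csa LD 04:00 replicate 2 and without both. LHCB1.1 (LOC_Os01g41710) had 1139.7 and 1346 CPM in SD and 451 and 505 CPM in LD at 16:00, against 191 and 139 CPM in SD and 143 and 184 CPM in LD at 04:00 (log2 fold change 2.23 ± 0.24 (SE), adjusted p = 5.9e-05). LHCB3 (LOC_Os07g37550) had 241 and 185 CPM in SD and 88.8 and 94.0 CPM in LD at 16:00, against 43.6 and 33.0 CPM in SD and 59.2 and 68.7 CPM in LD at 04:00 (log2 fold change 1.5 ± 0.19 (SE), adjusted p = 0.00023). In both, the 2 SD libraries at 16:00 were the highest of all 8, and no library at 16:00 reached down to the range of 04:00. Taken by day length, 9 of the 12 genes rose in SD, where 7.72% of all genes rose, and 2 rose and 1 fell in LD, where 11.2% rose. The difference, SD minus LD, had a median of 1.44 over the 12 genes and passed in 0 of them with edgeR and in 7 with DESeq2, and 10 had an unadjusted p under 0.05 with edgeR. LHCB1.2 (LOC_Os09g17740) rose by 2.26 ± 0.21, LHCB5 (LOC_Os11g13890) by 1.19 ± 0.18 and LHCA3 (LOC_Os02g10390) by 1.32 ± 0.18. LHCB1 genes are near copies of each other, so that reads may be shared among them.

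RCA (LOC_Os11g47970), Rubisco activase, had 167 and 104 CPM in SD and 113 and 107 CPM in LD at 16:00, against 573 and 342 CPM in SD and 266 and 428 CPM in LD at 04:00 and fell (log2 fold change −1.71 ± 0.22 (SE), adjusted p = 0.00023). Of the 3 genes for the Rubisco small subunit, which are near copies of each other, 1 fell and the other 2 did not pass. PORA (LOC_Os04g58200), the light-dependent step of chlorophyll synthesis, had 115 and 58.8 CPM in SD and 43.6 and 38.1 CPM in LD at 16:00, against 262 and 189 CPM in SD and 162 and 199.8 CPM in LD at 04:00 (log2 fold change −1.76 ± 0.24 (SE), adjusted p = 0.00031). CAO1 (LOC_Os10g41780), which makes chlorophyll b, averaged 37.8 ± 18.2 CPM at 16:00 and 73.7 ± 11.5 CPM at 04:00 (standard deviation, n = 4 each), with a log2 fold change of −1.08 ± 0.13. CHLH (LOC_Os03g20700), a subunit of magnesium chelatase, fell by 0.50 on the log2 scale, and that call was lost in 4 of the 8 fits that left out 1 library (adjusted p up to 0.089). With these, 3 of the 6 chlorophyll synthesis genes fell, and the other 3 did not pass.

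The summed photosynthesis genes, which also mark green tissue, were 6228 and 5249 CPM in SD and 2809 and 2640 CPM in LD at 16:00, against 3883 and 2778 CPM in SD and 2492 and 3609 CPM in LD at 04:00. The 17 genes went both ways, with 8 rises and 2 falls. The part of green tissue in the antenna result was not tested.

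**Figure D3:**
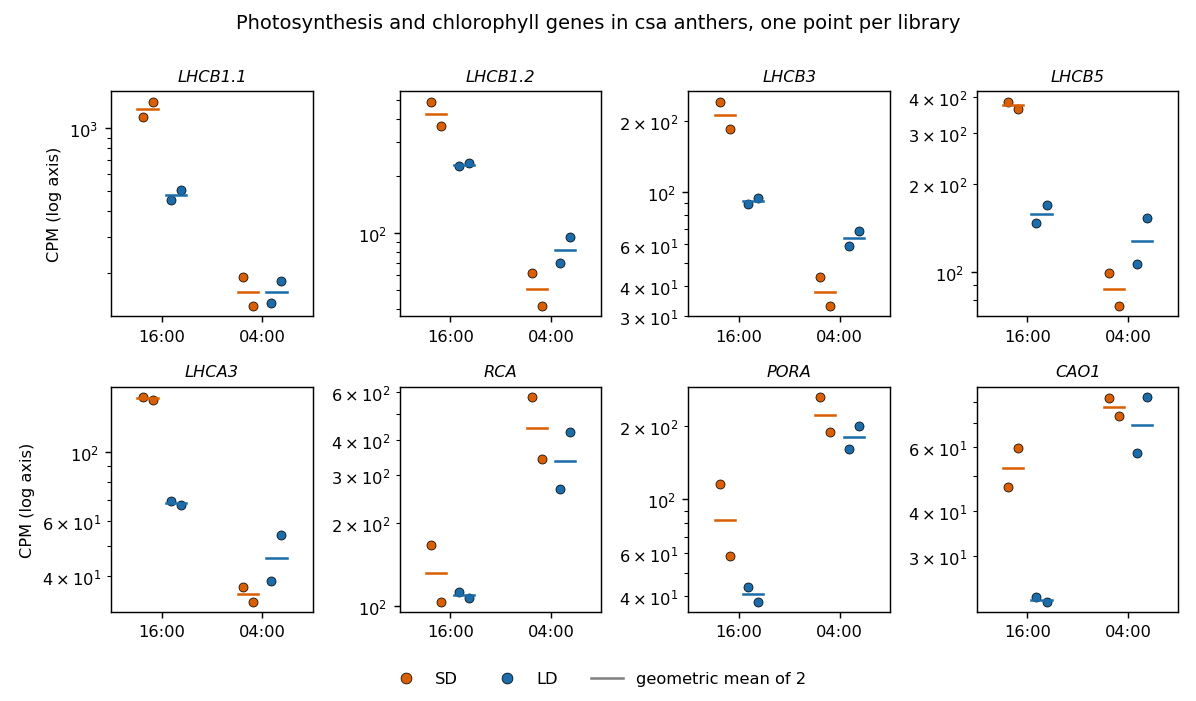
CPM on a log axis of 5 light-harvesting genes, RCA, PORA and CAO1 in the 8 csa anther libraries at 16:00 (left) and 04:00 (right), SD in orange and LD in blue, with the geometric mean of 2 libraries as a bar. The light-harvesting genes are higher at 16:00, most of all in SD, and RCA and PORA are lower at 16:00 in both day lengths.

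The catalase genes, whose enzymes break down hydrogen peroxide, split. CATC (LOC_Os03g03910), the catalase of photorespiration, had 4.17 and 1.77 CPM in SD and 1.02 and 0.505 CPM in LD at 16:00, against 23.0 and 13.2 CPM in SD and 8.96 and 20.2 CPM in LD at 04:00 (log2 fold change −3.44 ± 0.37 (SE), adjusted p = 6.7e-05). Its times did not overlap. CATA (LOC_Os02g02400) rose by 0.98 ± 0.16 and CATB (LOC_Os06g51150) by 0.62 ± 0.08, also with no overlap. The 2 ascorbate peroxidase genes of the list did not pass.

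Sugar transport and invertase genes fell more often than they rose. Of 24 tested, 9 fell and 3 rose, with a median of −0.62, where 14.7% of all tested genes fell and 17.5% rose. Taken by day length, 4 fell and 0 rose in SD, with a median of −0.12. In LD 9 fell and 1 rose, with a median of −0.84. The difference between the day lengths passed in 0 of the 24. OsSWEET2b (LOC_Os01g50460), of the SWEET family of sugar carriers, had 1.13 and 0.631 CPM in SD and 0.214 and 0.404 CPM in LD at 16:00, against 5.03 and 3.54 CPM in SD and 5.29 and 6.97 CPM in LD at 04:00 (log2 fold change −3.28 ± 0.34 (SE), adjusted p = 4.5e-05). OsSWEET14 (LOC_Os11g31190), a sucrose exporter, had 2.37 and 1.14 CPM in SD and 0.375 and 0.505 CPM in LD at 16:00, against 5.67 and 3.59 CPM in SD and 2.90 and 3.90 CPM in LD at 04:00 (log2 fold change −2.17 ± 0.28 (SE), adjusted p = 0.0002). Both were low throughout and did not overlap between the times. OsVIN2 (LOC_Os02g01590), an invertase of the vacuole, had 43.8 and 33.8 CPM in SD and 47.5 and 72.5 CPM in LD at 16:00, against 162 and 128 CPM in SD and 220.3 and 236 CPM in LD at 04:00 (log2 fold change −1.91 ± 0.16 (SE), adjusted p = 1.1e-05). Its log2 fold change was −1.90 in SD and −1.93 in LD.

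OsMST6 (LOC_Os07g37320), a monosaccharide transporter, had 46.0 and 46.7 CPM in SD and 17.6 and 13.5 CPM in LD at 16:00, against 44.9 and 50.9 CPM in SD and 52.5 and 45.1 CPM in LD at 04:00. It fell over both day lengths (log2 fold change −0.85 ± 0.16 (SE), adjusted p = 0.0023), but the SD libraries of the 2 times overlapped (log2 fold change −0.05 in SD and −1.65 in LD). The difference between the day lengths did not pass (adjusted p = 0.080). OsSWEET4 (LOC_Os02g19820) fell by 0.65 on the log2 scale. OsSWEET13 (LOC_Os12g29220) fell by 0.91, a call lost in 4 of the 8 fits that left out 1 library (adjusted p up to 0.076). The 3 rises of this list, named after their values were seen, were OsSUT4 (LOC_Os02g58080; 0.39 ± 0.11), OsSWEET11 (LOC_Os08g42350; 0.65 ± 0.19) and OsSWEET15 (LOC_Os02g30910; 0.67 ± 0.23). They became 0 without csa LD 16:00 replicate 2 and 1 without csa LD 04:00 replicate 2, while the falls became 8 and 7. The monosaccharide transporters OsMST8 (LOC_Os01g38670; −0.45 ± 0.22, adjusted p = 0.14) and OsMST7 (LOC_Os01g38680; 0.91 ± 0.47, adjusted p = 0.16) did not pass.

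Starch synthesis genes moved both ways, with 9 rises, 5 falls and 14 not past the threshold among 28, and a median of 0.04. Without both LD second replicates the falls were 3. PHO1 (LOC_Os03g55090), the plastid starch phosphorylase, had 83.9 and 90.4 CPM in SD and 67.0 and 69.9 CPM in LD at 16:00, against 12.0 and 13.4 CPM in SD and 14.8 and 14.4 CPM in LD at 04:00 and was 5.67-fold higher at 16:00 (log2 fold change 2.50 ± 0.12 (SE), adjusted p = 7.0e-08). BEIIa (LOC_Os04g33460), a starch branching enzyme, had 52.3 and 65.3 CPM in SD and 47.3 and 37.5 CPM in LD at 16:00, against 18.9 and 18.8 CPM in SD and 17.1 and 16.4 CPM in LD at 04:00 (log2 fold change 1.49 ± 0.12 (SE), adjusted p = 7.1e-06). Neither gene overlapped between the times. ISA1 (LOC_Os08g40930), a debranching enzyme, rose by 0.70 ± 0.10 and SSIIIa (LOC_Os08g09230), a starch synthase, by 0.64 ± 0.08. SSIIIb (LOC_Os04g53310), its relative, fell by 0.63 on the log2 scale. AGPL2 (LOC_Os01g44220), a large subunit of ADP-glucose pyrophosphorylase, rose by 0.57 ± 0.08.

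Starch breakdown genes were few, with 1 rise and 1 fall among 6, near the 17.5% and 14.7% of all tested genes. GWD1 (LOC_Os06g30310), the kinase that starts starch breakdown, had 149.7 and 179 CPM in SD and 114 and 127 CPM in LD at 16:00, against 74.0 and 75.8 CPM in SD and 57.3 and 64.8 CPM in LD at 04:00 (log2 fold change 1.06 ± 0.14 (SE), adjusted p = 0.00023). OsBAM3 (LOC_Os10g41550), a beta-amylase, had 41.1 and 47.8 CPM in SD and 42.5 and 49.8 CPM in LD at 16:00, against 178 and 174 CPM in SD and 162 and 175 CPM in LD at 04:00 (log2 fold change −1.93 ± 0.17 (SE), adjusted p = 1.4e-05). The first was higher and the second lower in every library at 16:00. Of 8 sucrose phosphate synthase and hexokinase genes only SPS11 (LOC_Os11g12810) passed, with 1.05 ± 0.292 CPM at 16:00 and 2.59 ± 0.799 CPM at 04:00 (standard deviation, n = 4 each). Its log2 fold change was −1.32 ± 0.28 (SE, adjusted p = 0.0045).

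Among 8 genes of sugar starvation and trehalose signalling 2 rose and 3 fell, where 17.5% of all tested genes rose and 14.7% fell. SnRK1A (LOC_Os05g45420), the kinase of the sugar starvation response, averaged 150.3 ± 12.0 CPM at 16:00 and 105 ± 5.91 CPM at 04:00 (standard deviation, n = 4 each). Its log2 fold change was 0.52 ± 0.10 (SE, adjusted p = 0.002). OsTPS1 (LOC_Os05g44210), which makes trehalose 6-phosphate, rose by 0.66 ± 0.12. MYBS1 (LOC_Os01g34060; −0.88 ± 0.20) and MYBS2 (LOC_Os10g41260; −0.55 ± 0.10), regulators of sugar-controlled alpha-amylase genes, fell. ASN1 (LOC_Os03g18130), asparagine synthetase, fell by 0.63, a call lost in 4 of the 8 fits that left out 1 library (adjusted p up to 0.076).

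Among 8 regulators of the tapetum, the nurse tissue of the pollen, 1 rose and 2 fell in these whole anthers. Over all tested genes 17.5% rose and 14.7% fell, so the list was near the common share. EAT1 (LOC_Os04g51070), a factor that promotes programmed death of the tapetum, had 47.6 and 58.4 CPM in SD and 132 and 121 CPM in LD at 16:00, against 39.3 and 37.6 CPM in SD and 63.7 and 46.3 CPM in LD at 04:00 (log2 fold change 0.83 ± 0.11 (SE), adjusted p = 0.00022). The LD libraries at 16:00 were the highest, and the libraries of the 2 times overlapped. UDT1 (LOC_Os07g36460), an early tapetum factor, fell by 0.56 on the log2 scale, and this call ended without csa SD 16:00 replicate 2 (adjusted p = 0.053). TIP2 (LOC_Os01g18870), which acts upstream of EAT1, fell by 0.30, a call lost in 6 of the 8 fits that left out 1 library (adjusted p up to 0.15).

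Pollen wall genes had a median of 1.65 over 13 genes, yet only 2 passed. CYP703A3 (LOC_Os08g03682), a fatty acid hydroxylase of sporopollenin synthesis, had 28.6 and 16.7 CPM in SD and 101 and 44.9 CPM in LD at 16:00, against 1.06 and 1.79 CPM in SD and 58.1 and 2.06 CPM in LD at 04:00 (log2 fold change 2.64 ± 0.86 (SE), adjusted p = 0.034). Its call was lost in 5 of the 8 fits that left out 1 library (adjusted p up to 0.12). DPW (LOC_Os03g07140), a fatty acyl reductase of the same pathway, had 99.0 and 90.1 CPM in SD and 307 and 231 CPM in LD at 16:00, against 33.9 and 30.3 CPM in SD and 183 and 45.4 CPM in LD at 04:00 (log2 fold change 1.4 ± 0.36 (SE), adjusted p = 0.012). In SD both genes were higher in the 2 libraries at 16:00 than in the 2 at 04:00. In LD at 04:00 replicate 1 was far above replicate 2 in both genes, so that the libraries of the times overlapped.

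A further 4 genes of this pathway showed the same arrangement and did not pass. They are ACOS12 (LOC_Os04g24530), CYP704B2 (LOC_Os03g07250), PKS1 (LOC_Os10g34360) and ABCG15 (LOC_Os06g40550), which activate, hydroxylate, extend and export the precursors. ACOS12 had 47.0 and 54.2 CPM in SD and 178 and 139 CPM in LD at 16:00, against 4.50 and 1.85 CPM in SD and 141 and 5.75 CPM in LD at 04:00 (log2 fold change 2.53 ± 1.04 (SE), adjusted p = 0.082). CYP704B2 had 72.3 and 108 CPM in SD and 271 and 256 CPM in LD at 16:00, against 23.3 and 11.4 CPM in SD and 253 and 22.2 CPM in LD at 04:00 (log2 fold change 1.65 ± 0.89 (SE), adjusted p = 0.18). PKS1 averaged 220.0 ± 89.7 CPM at 16:00 and 93.7 ± 147 CPM at 04:00 (standard deviation, n = 4 each, adjusted p = 0.13). ABCG15 averaged 22.7 ± 14.5 CPM at 16:00 and 9.37 ± 15.5 CPM at 04:00 (adjusted p = 0.097). These genes were named after their values were seen. The 7 sporopollenin genes kept 2 calls without csa LD 16:00 replicate 2, without csa LD 04:00 replicate 2 and without both. Without csa LD 04:00 replicate 1, the high library, the log2 fold change was 4.53 for CYP703A3 (adjusted p = 0.0028) and 2.02 for DPW (adjusted p = 0.00077).

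**Figure D4:**
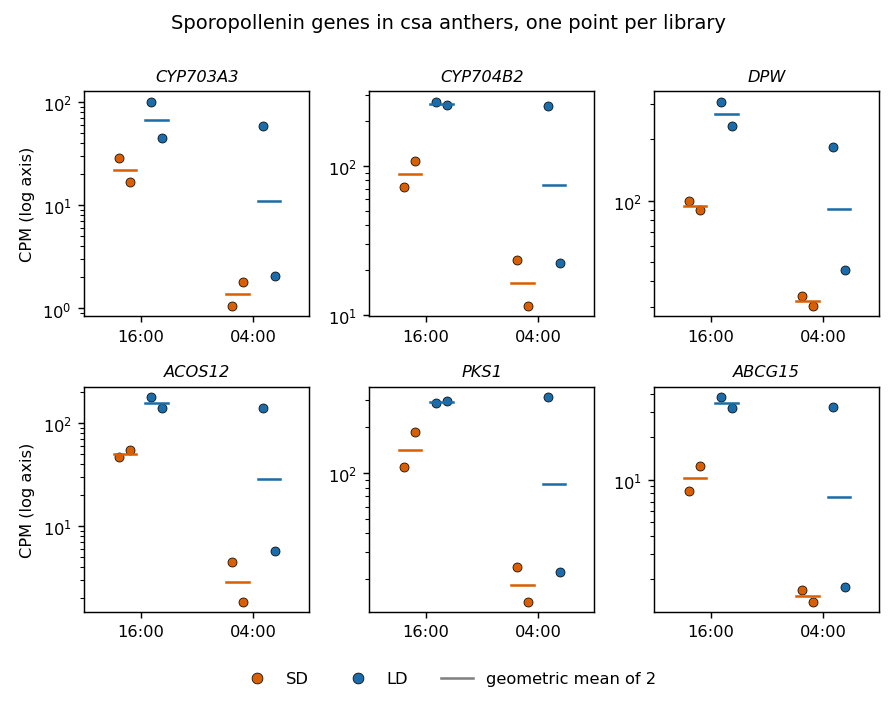
CPM on a log axis of 6 sporopollenin genes in the 8 csa anther libraries at 16:00 (left) and 04:00 (right), SD in orange and LD in blue, with the geometric mean of 2 libraries as a bar. The 2 SD libraries at 16:00 are above the 2 SD libraries at 04:00 in each gene, and the 2 LD libraries at 04:00 lie far apart.

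Late pollen genes were at most 0.615 CPM in SD and scattered in LD. Summed, they had 29.7 and 2.17 CPM in LD at 16:00 and 84.6 and 19.3 CPM in LD at 04:00. The SD libraries had between 1.14 and 1.62 CPM. None of the 5 passed with edgeR, with DESeq2 or at an unadjusted p under 0.05. With no filter on low counts the same edgeR test called EXPB1 (−3.07, adjusted p = 0.0047). MADS63 (LOC_Os06g11970), a pollen MADS-box gene, had 0.258 and 0.294 CPM in SD and 12.9 and 1.16 CPM in LD at 16:00, against 0.264 and 0.0513 CPM in SD and 10.6 and 8.18 CPM in LD at 04:00. The expansin gene EXPB1 (LOC_Os03g01610) gave 0 and 0 CPM in SD and 10.01 and 0.0505 CPM in LD at 16:00, against 0.0756 and 0.0513 CPM in SD and 50.3 and 5.46 CPM in LD at 04:00. In both genes replicate 1 in LD was above replicate 2 at both times. The log2 fold change of MADS63 was 0.12 ± 0.95 with all libraries and −1.17 without csa LD 16:00 replicate 1.

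Among 13 jasmonate genes, 2 fell and 0 rose in SD, and 3 fell and 1 rose in LD. Over both day lengths, beside 14.7% falls and 17.5% rises of all tested genes, there were 4 falls and 2 rises. The rises were 1 without csa LD 16:00 replicate 2 and 0 without csa LD 04:00 replicate 2. JAZ1 (LOC_Os04g55920), a repressor of jasmonate signalling, had 222 and 172 CPM in SD and 266 and 259 CPM in LD at 16:00, against 419 and 448 CPM in SD and 424 and 442 CPM in LD at 04:00 (log2 fold change −0.93 ± 0.11 (SE), adjusted p = 0.00011). Its times did not overlap. AOS1 (LOC_Os03g55800), an enzyme of jasmonate synthesis, fell by 0.58 on the log2 scale and MYC2 (LOC_Os10g42430), the transcription factor that JAZ proteins hold back, by 0.45. OPR7 (LOC_Os08g35740), a reductase of jasmonate synthesis, JAR1 (LOC_Os05g50890), which joins jasmonate to isoleucine, and JAZ8 (LOC_Os09g26780), another JAZ repressor, passed with log2 fold changes of −0.20 ± 0.06, 0.42 ± 0.12 and 0.35 ± 0.12. The call of OPR7 was lost in 5 of the 8 fits that left out 1 library (adjusted p up to 0.093), that of JAR1 in 5 of the 8 fits that left out 1 library (adjusted p up to 0.095) and that of JAZ8 in 8 of the 8 fits that left out 1 library (adjusted p up to 0.2).

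Gibberellin genes went one way, with 5 falls among 12 and the other 7 not past the threshold, and a median of −0.42. Of all tested genes 14.7% fell. GA20ox1 (LOC_Os03g63970), an oxidase of gibberellin synthesis, had 87.2 and 96.9 CPM in SD and 89.6 and 115 CPM in LD at 16:00, against 200.1 and 223 CPM in SD and 144 and 153 CPM in LD at 04:00 (log2 fold change −0.87 ± 0.17 (SE), adjusted p = 0.0024). SLR1 (LOC_Os03g49990), the DELLA repressor, had 104 and 83.4 CPM in SD and 124 and 139.5 CPM in LD at 16:00, against 187 and 147 CPM in SD and 179 and 177 CPM in LD at 04:00 (log2 fold change −0.64 ± 0.11 (SE), adjusted p = 0.0013). In both genes each library at 16:00 was below each library at 04:00. GID1 (LOC_Os05g33730), the gibberellin receptor, fell by 0.43, GID2 (LOC_Os02g36974), its F-box partner, by 0.24, and GA3ox2 (LOC_Os01g08220), the last step of synthesis, by 0.83 on the log2 scale. The call of GID1 ended without csa SD 16:00 replicate 2 (adjusted p = 0.054), that of GID2 in 2 of the 8 fits that left out 1 library (adjusted p up to 0.076) and that of GA3ox2 in 3 of the 8 fits that left out 1 library (adjusted p up to 0.078).

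Aquaporins, the water channels of membranes, fell in 8 of 11 genes and rose in 1, with a median of −0.96. PIP1;2 (LOC_Os04g47220), of the plasma membrane, had 614 and 449 CPM in SD and 543 and 687 CPM in LD at 16:00, against 1187 and 1078 CPM in SD and 983 and 1186 CPM in LD at 04:00 (log2 fold change −0.96 ± 0.15 (SE), adjusted p = 0.00092). PIP2;1 (LOC_Os07g26690) had 221 and 149.5 CPM in SD and 211 and 268 CPM in LD at 16:00, against 389 and 346 CPM in SD and 459 and 509 CPM in LD at 04:00 (log2 fold change −1.002 ± 0.14 (SE), adjusted p = 0.00031). No library at 16:00 reached the range of 04:00 in either gene. PIP1;1 (LOC_Os02g44630) fell by 0.58 on the log2 scale, PIP1;3 (LOC_Os02g57720) by 0.98, PIP2;2 (LOC_Os02g41860) by 1.12 and PIP2;5 (LOC_Os07g26660) by 2.01 (by 2.66 without csa LD 16:00 replicate 1). The single rise was that of PIP2;4 (LOC_Os07g26630), named after its values were seen, with 9.14 ± 3.70 CPM at 16:00 and 4.09 ± 4.34 CPM at 04:00 (standard deviation, n = 4 each). It was lost without csa LD 04:00 replicate 2.

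Heat shock genes were low, with 4 falls and 1 rise among 10 over both day lengths. Taken by day length, 4 fell and 0 rose in SD (median −1.04), where no log2 fold change was above −0.38. In LD 0 fell and 1 rose (median 0.24). The rise over both day lengths, that of HSP26.7, was thus not seen in SD. HSP17.4 (LOC_Os03g16020), a small heat shock protein, had 2.58 and 2.40 CPM in SD and 9.64 and 10.4 CPM in LD at 16:00, against 11.7 and 9.89 CPM in SD and 7.96 and 10.6 CPM in LD at 04:00 (log2 fold change −1.003 ± 0.15 (SE), adjusted p = 0.0005). The 2 SD libraries at 16:00 were low and the other 6 alike. Another small heat shock gene, HSP18.0 (LOC_Os03g16030) had 2.52 and 2.31 CPM in SD and 7.34 and 8.84 CPM in LD at 16:00, against 8.16 and 6.92 CPM in SD and 7.96 and 10.3 CPM in LD at 04:00 (log2 fold change −0.91 ± 0.17 (SE), adjusted p = 0.0022). Genes of this family are alike in sequence, so that reads may be shared. HSFA2d (LOC_Os03g06630), a heat shock factor, fell by 0.96 on the log2 scale, and HSP101 (LOC_Os05g44340), a disaggregase, by 0.67, a call lost in 6 of the 8 fits that left out 1 library (adjusted p up to 0.12). HSP26.7 (LOC_Os03g14180), a chloroplast small heat shock protein, rose by 1.03 ± 0.28, a call lost in 3 of the 8 fits that left out 1 library (adjusted p up to 0.072). Of the 2 DREB1 cold response genes tested, none passed with edgeR or DESeq2 and 1 had an unadjusted p under 0.05. DREB1A passed with RLE scaling (−1.61, adjusted p = 0.046), without csa SD 04:00 replicate 1 (adjusted p = 0.033) and without csa LD 16:00 replicate 1 (adjusted p = 0.046). DREB1A (LOC_Os09g35030) had 0.181 ± 0.180 CPM at 16:00 and 0.439 ± 0.258 CPM at 04:00 and DREB1B (LOC_Os09g35010) 0.572 ± 0.531 CPM at 16:00 and 0.632 ± 0.686 CPM at 04:00 (standard deviation, n = 4 each). The log2 fold change of DREB1B was −0.49 ± 0.58 with all libraries and 0.33 without csa LD 04:00 replicate 1.

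Outside the lists, the largest rises and falls among genes of at least 5 CPM belonged to genes that the tables do not name. LOC_Os01g42190 had 19.9 and 20.8 CPM in SD and 18.5 and 19.5 CPM in LD at 16:00, against 0.0756 and 0.0513 CPM in SD and 0.0773 and 0 CPM in LD at 04:00 (log2 fold change 8.43 ± 0.30 (SE), adjusted p = 1.7e-08). LOC_Os02g45225 had 10.5 and 8.37 CPM in SD and 8.03 and 5.86 CPM in LD at 16:00, against 0.151 and 0.154 CPM in SD and 0.155 and 0.168 CPM in LD at 04:00 (log2 fold change 5.64 ± 0.26 (SE), adjusted p = 5.1e-08). Both were near 0 at night in either day length. LOC_Os01g42190 held 5 counts over the 4 csa libraries at 04:00, so that the size of its fold is uncertain. With 1 csa library left out its log2 fold change lay between 8.00 and 9.87. LOC_Os04g49450 had 2.22 and 1.304 CPM in SD and 1.07 and 0.960 CPM in LD at 16:00, against 135 and 121 CPM in SD and 106 and 135 CPM in LD at 04:00 (log2 fold change −6.54 ± 0.20 (SE), adjusted p = 2.2e-09). LOC_Os10g18370 had 0.258 and 0.252 CPM in SD and 0.0535 and 0.0505 CPM in LD at 16:00, against 7.52 and 7.02 CPM in SD and 9.54 and 11.9 CPM in LD at 04:00 (log2 fold change −6.17 ± 0.48 (SE), adjusted p = 5.0e-06). These 2 were near 0 in the afternoon. In WT anthers the log2 fold change was 5.58 ± 0.26 for LOC_Os02g45225, −5.35 ± 0.19 for LOC_Os04g49450 and −5.12 ± 0.47 for LOC_Os10g18370. LOC_Os01g42190 had 1285 counts over the 4 WT libraries at 16:00 and 1 count over the 4 at 04:00, which is too few for a fold.

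To ask whether the time effect depended on the photoperiod, it was also taken within SD, where csa is sterile, and within LD, where it is fertile. In SD 3906 genes differed between the times (15.5%), with 1945 rises (7.72%) and 1961 falls (7.78%), and 1390 reached 2-fold (5.52%). In LD 4976 differed (19.7%), with 2831 rises (11.2%) and 2145 falls (8.51%), and 1696 reached 2-fold (6.73%). Both fits called 1936 genes, 49.6% of the SD calls and 38.9% of the LD calls, and 1915 of these had the same direction. The SD count fell to 1045 without csa SD 16:00 replicate 2, to 1125 without csa SD 04:00 replicate 1 and to 1435 without csa SD 04:00 replicate 2. The balance in LD was 2259 rises and 3652 falls with no filter on low counts, 915 rises and 1015 falls with the csa libraries of LD alone, and 1049 rises and 1505 falls without csa LD 04:00 replicate 1. The LD count fell to 2076 without csa LD 16:00 replicate 2, to 2554 without csa LD 04:00 replicate 1 and to 2352 without csa LD 04:00 replicate 2.

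The difference between the 2 time effects, SD minus LD, passed in 49 genes (0.194% of 25203). It was positive in 10 of these (0.0397%) and negative in 39 (0.155%), and 40 reached 2-fold (0.159%). The log2 fold change was below 0 in SD in 40 of the 49 and above 0 in LD in 36. The count depended on single libraries. It was 1 without csa SD 16:00 replicate 2 or without csa LD 04:00 replicate 2, 2 without csa SD 04:00 replicate 2, 3 without csa SD 04:00 replicate 1, 5 without csa LD 04:00 replicate 1, 8 without csa LD 16:00 replicate 2, 21 without csa LD 16:00 replicate 1 and 36 without csa SD 16:00 replicate 1. It was 3 in a fit of the csa libraries alone (2 positive and 1 negative), 27 with a replicate block (5 and 22) and 479 with DESeq2 (181 and 298). With no filter on low counts it was 1013, with 689 positive and 324 negative, so that the balance of signs turned.

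OsLHY had the lowest p of all genes in this difference. Its log2 fold change was −2.35 ± 0.21 (adjusted p = 3.7e-05) in SD and −5.89 ± 0.25 (adjusted p = 8.7e-08) in LD, a difference of 3.54 ± 0.29 (adjusted p = 0.0012). This difference passed in each fit that left out 1 csa library, but not when both LD second replicates were left out (adjusted p = 0.057). In WT anthers OsLHY had 46.4 and 42.6 CPM in SD and 9.63 and 15.5 CPM in LD at 16:00, against 511 and 427 CPM in SD and 1014 and 901 CPM in LD at 04:00, so that the WT libraries of SD at 16:00 were also above those of LD. HSP17.4 fell in SD (−2.12 ± 0.22, adjusted p = 0.00011) and did not pass in LD (0.11 ± 0.20, adjusted p = 0.73), a difference of −2.23 ± 0.29 (adjusted p = 0.017). AGPL2 had 24.4 and 21.5 CPM in SD and 38.6 and 34.2 CPM in LD at 16:00, against 21.8 and 24.1 CPM in SD and 16.2 and 16.87 CPM in LD at 04:00. It rose in LD (1.14 ± 0.12, adjusted p = 0.00011) and did not pass in SD (adjusted p = 1), a difference of −1.14 ± 0.17 (adjusted p = 0.023). The calls of HSP17.4 and AGPL2 were lost in 6 and 7 of the 8 fits that left out 1 csa library, with adjusted p up to 0.090 and 0.15.

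WT anthers of the same times and day lengths showed whether the csa time effects were those of the WT. In WT 4212 genes differed between 16:00 and 04:00 (16.7%), of which 2090 rose (8.29%) and 2122 fell (8.42%), and 879 reached 2-fold (3.49%). Both genotypes called 2052 genes, 25.3% of the csa calls and 48.7% of the WT calls. Of these 1255 moved the same way and 797 in opposite ways. The difference of the time effects, csa minus WT, passed in 6765 genes (26.8%), positive in 3738 (14.8%) and negative in 3027 (12%), and 1809 reached 2-fold (7.18%). With RLE scaling 3331 were positive and 3285 negative. Among genes whose higher csa mean was below 1 CPM the median log2 fold change was −0.17 in csa and 0.20 in WT, and among those between 50 and 200 CPM it was 0.11 in csa and −0.07 in WT.

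The clock differed between 16:00 and 04:00 in both genotypes, and the difference, csa minus WT, was positive and past the threshold in 9 of 13 clock genes. One of these was OsLHY, which fell by 4.12 on the log2 scale in csa and by 4.82 in WT, while the other 8 were genes with a higher value at 16:00 in csa. OsPRR73 had 294 and 316 CPM in SD and 303 and 310.0 CPM in LD at 16:00, against 53.8 and 58.4 CPM in SD and 26.2 and 30.3 CPM in LD at 04:00 in WT anthers, with a difference of 1.67 ± 0.11 (adjusted p = 4.5e-05). OsGI had 739 and 785 CPM in SD and 1129 and 1126 CPM in LD at 16:00, against 97.3 and 89.7 CPM in SD and 30.4 and 37.3 CPM in LD at 04:00 in WT anthers, with a difference of 1.57 ± 0.14 (adjusted p = 0.00034). In both genes the WT libraries at 04:00 were above the csa libraries of the same day length. OsPRR37 (0.82 ± 0.14, adjusted p = 0.0026) and OsPRR1 (0.58 ± 0.10, adjusted p = 0.0026) differed in the same direction. At 04:00 OsPRR37 had 44.8 and 59.3 CPM in WT and 19.3 and 19.7 CPM in csa in SD. In LD it had 13.6 and 15.2 CPM in WT and 15.1 and 14.6 CPM in csa. OsPRR1 had 31.1 and 29.6 CPM in WT and 22.7 and 20.9 CPM in csa in SD. In LD it had 14.9 and 14.7 CPM in WT and 14.8 and 13.7 CPM in csa. The genotype difference was not tested by day length. OsFKF1 (0.50 ± 0.25, adjusted p = 0.16) and OsLUX (0.12 ± 0.23, adjusted p = 0.79) did not pass this test.

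The time effect of light-harvesting genes was lower in csa than in WT. The difference was negative and past the threshold in 8 of the 12 genes, with a median of −0.94, but in 5 of 12 without csa LD 16:00 replicate 2, in 5 without csa LD 04:00 replicate 2 and in 2 without both. Of 28 starch synthesis genes 7 had a positive and 1 a negative difference and 20 did not pass, with a median of 0.15. Over all tested genes 14.8% were positive and 12% negative. PHO1 in WT anthers had 65.6 and 65.5 CPM in SD and 80.4 and 94.2 CPM in LD at 16:00, against 58.2 and 42.4 CPM in SD and 27.2 and 35.3 CPM in LD at 04:00, and the difference was 1.57 ± 0.16 (adjusted p = 0.0004). The 4 WT libraries at 04:00 were above all 4 csa libraries of that time, and the afternoon levels overlapped. ISA1 (0.85 ± 0.14, adjusted p = 0.0021) and SSIIIa (0.80 ± 0.11, adjusted p = 0.0012) rose in csa, and their time effects in WT anthers did not pass (adjusted p = 0.3 and 0.16).

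OsTPP1 (LOC_Os02g44230), a trehalose 6-phosphate phosphatase, passed between the times in WT and not in csa. It had 15.2 and 23.9 CPM in SD and 14.8 and 15.8 CPM in LD at 16:00, against 14.1 and 16.5 CPM in SD and 18.9 and 15.8 CPM in LD at 04:00 in csa anthers (log2 fold change 0.09 ± 0.17 (SE), adjusted p = 0.73). In WT anthers it had 62.1 and 46.5 CPM in SD and 13.99 and 8.48 CPM in LD at 16:00, against 95.5 and 97.3 CPM in SD and 49.5 and 49.5 CPM in LD at 04:00, and the difference was 1.57 ± 0.24 (adjusted p = 0.0019). EAT1 had 107 and 98.3 CPM in SD and 159 and 159 CPM in LD at 16:00, against 147 and 142 CPM in SD and 148 and 127 CPM in LD at 04:00 in WT anthers. The csa libraries were below the WT libraries of the same time and day length throughout, and the difference of the time effects was 0.97 ± 0.15 (adjusted p = 0.002).

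Of the 12 gibberellin genes 5 had a negative difference and 7 did not pass, beside 12% negative over all tested genes. SLR1 in WT anthers had 119.5 and 137 CPM in SD and 171 and 138 CPM in LD at 16:00, against 56.3 and 61.3 CPM in SD and 217 and 208 CPM in LD at 04:00. It was higher at 16:00 than at 04:00 in WT libraries of SD and lower in those of LD, whereas in csa it was lower in both, and the difference over both day lengths was −0.97 ± 0.15 (adjusted p = 0.0021). AOS1 in WT anthers had 31.8 and 36.2 CPM in SD and 38.3 and 32.4 CPM in LD at 16:00, against 18.1 and 20.9 CPM in SD and 45.4 and 41.8 CPM in LD at 04:00, the same arrangement, with a difference of −0.83 ± 0.13 (adjusted p = 0.0019). HSP17.4 in WT anthers had 3.34 and 4.68 CPM in SD and 12.0 and 10.3 CPM in LD at 16:00, against 3.04 and 2.995 CPM in SD and 10.1 and 8.34 CPM in LD at 04:00, with a difference of −1.35 ± 0.21 (adjusted p = 0.0019).

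**Figure D5:**
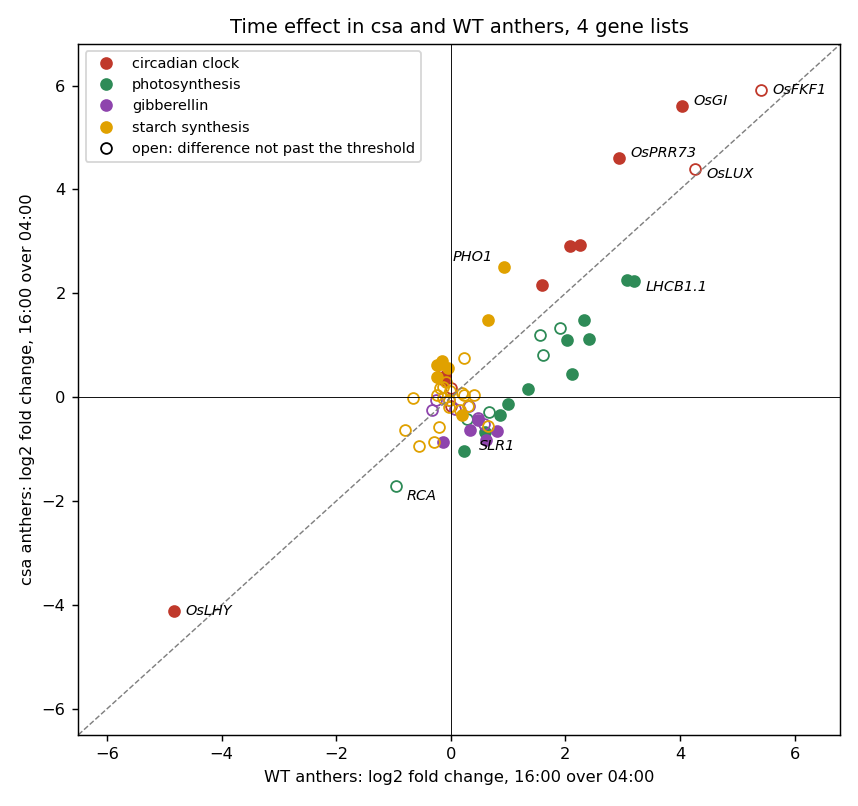
Log2 fold change of 16:00 over 04:00 in csa anthers (vertical) against that in WT anthers (horizontal) for the tested genes of 4 lists, with filled points where the difference between the genotypes passed the test. The dashed line marks equal effects. Above it lie OsGI, OsPRR73 and PHO1, and the 11 photosynthesis genes with a called difference lie below it.

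In flag leaves of csa, taken from the same tillers and scaled in their own table, 14077 of 22095 genes differed between 16:00 and 04:00 (63.7%), with 7007 rises (31.7%) and 7070 falls (32%). Each of the 12 light-harvesting genes rose there. The log2 fold changes in csa leaves were 7.99 for OsGI, 8.86 for OsPRR73 and −7.05 for OsLHY, beside 5.61 ± 0.12, 4.61 ± 0.09 and −4.12 ± 0.16 in csa anthers. PORA was higher at 16:00 in csa leaves (7.90) and lower at 16:00 in csa anthers (−1.76 ± 0.24). HSP17.4 had 1.54 in csa leaves, which did not pass (adjusted p = 0.087). The difference between the tissues was not tested.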

How the data were processed

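Whole-gene read counts were taken as the authors deposited them, one table for anthers and one for flag leaves. How reads were aligned and counted, on which genome build and with which strand setting, is information not given in the sources used here. CPM values were counts scaled to library size and TMM factors. The 16 anther libraries were fitted together with edgeR 4.0.16 (limma 3.58.1, R 4.3.3), with 1 term for each genotype, photoperiod and time. Genes passed filterByExpr (a minimum count of 10), with trended dispersion, the quasi-likelihood F-test and Benjamini-Hochberg adjustment at 0.05. The time effect was averaged over SD and LD. Leaf libraries were fitted in their own table. The procedure was tested on simulated data in which every gene and library had the same spread. That simulation cannot show how the fit handles LD pairs that were less alike than the SD pairs. Plots were drawn with matplotlib 3.10.9.

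Members and gene lists were chosen with earlier results of these data known. The text names CSA and its paralog, up to 6 genes per list with the lowest p among those past the threshold (all clock genes, and the 2 highest where none passed), 2 rises and 2 falls outside the lists, and up to 12 genes for each difference of time effects. Symbols and locus IDs of the 219 list genes were written from general knowledge. Of these, 112 symbols were found in a RefSeq table on the same chromosome, 2 on another and 105 not at all. The SE of a log2 fold change rests on a spread estimated over all 16 anther libraries of both genotypes, with 2 libraries per group. It was the absolute log2 fold change divided by the square root of the F statistic of the test. The ± of a mean CPM is the standard deviation over 4 libraries of both day lengths, so it also holds the day-length difference. Both include counting error at low CPM. DESeq2 1.42.0, RLE scaling, no filter, a 2-fold minimum, a replicate block, the compared libraries alone and leaving out each library were tried. No gene sequences or coordinates are given.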

Additional observations from a re-analysis of the deposited data

Results flagged for a closer look

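Among 180 sets of 4 csa libraries (90 named genes at each time), 11 held a library far from the other 3, which is 6.11% where chance gives about 5%. In LD replicate 1 at 04:00, CYP703A3 had 58.1 CPM, DPW 183 CPM, UDT1 21.3 CPM, EXPB1 50.3 CPM and DREB1B 1.66 CPM, each above the other 3, and OsPIL16 had 30.4 CPM, below them. In LD replicate 1 at 16:00, MADS63 had 12.9 CPM, EXPB1 10.01 CPM and PIP2;2 113 CPM, above the other 3. OsPIL11 was low in LD replicate 2 at 16:00, with 0.758 CPM. RCA was high in SD replicate 1 at 16:00, with 167 CPM. Of the 11 values, 9 fell in LD replicate 1 of one time or the other.

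The time effect differed between the day lengths in 3 named genes. OsLHY differed by 3.54, AGPL2 by −1.14 and HSP17.4 by −2.23 on the log2 scale (SD minus LD).

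The time effect differed between the genotypes in more list genes than are named here. Of 208 tested, 31 had a positive and 38 a negative difference past the threshold. The 12 with the lowest p are given. On the log2 scale (csa minus WT) the difference was 1.67 in OsPRR73, 1.57 in OsGI, 0.82 in OsPRR37 and 0.58 in OsPRR1, all of the clock. It was 1.57 in PHO1, 0.85 in ISA1 and 0.80 in SSIIIa, all of starch synthesis, and 1.57 in OsTPP1 and 0.97 in EAT1. It was −0.83 in AOS1, −0.97 in SLR1 and −1.35 in HSP17.4. Each of the 12 passed in every fit that left out 1 anther library.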

How the results depend on the processing

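Named genes were not checked with the compared libraries alone. Among the 105 named values, none past the threshold changed sign with DESeq2, RLE scaling, no filter, a replicate block or libraries left out. Among named genes not past it, CSA, CSA2, MADS63 and DREB1B changed sign when 1 csa library was left out, to as far as −0.03, −0.16, −1.17 and 0.33 on the log2 scale, and CSA also did without both second replicates of LD (−0.14). Of 105 named values, 103 kept their side of the threshold with DESeq2, 102 with RLE scaling and 101 with no filter. Leaving out 1 csa library ended between 3 and 16 of them. Counts moved more. With a 2-fold minimum, 1718 genes differed over both day lengths, 1390 in SD, 1696 in LD, 40 between SD and LD and 1809 between csa and WT. Leaving out 1 library gave 5718 to 8437 genes over both day lengths, 1045 to 4735 in SD, 2076 to 3777 in LD, 1 to 36 between SD and LD and 4712 to 7522 between csa and WT. Without both LD second replicates, an alternative chosen after seeing the data, the counts were 4796 over both day lengths, 786 in LD and 0 between SD and LD, where 2118 genes had an unadjusted p under 0.05. With the compared libraries alone LD gave 1930 genes and the difference between SD and LD 3. That difference gave 479 genes with DESeq2 and 1013 with no filter. The cause of these changes was not tested.

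Whether replicate numbers pair the samples is not given by the labels and was not settled here. Deviations of same-numbered csa libraries correlated between −0.12 and 0.22 over 6 pairs of groups. The highest values were those between the 2 times within SD (0.18) and within LD (0.22). A replicate block gave 7675 genes over both day lengths, 3283 in SD, 4423 in LD, 27 between SD and LD and 6174 between csa and WT, and 104 of 105 named values kept their side of the threshold. Depth limits genes near 10 counts, which is 0.385 to 0.554 CPM.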
